A study of Mus musculus with 24 samples.

Results

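A single injection of morphine was read in the nucleus accumbens of wild-type mice as the level of every measured gene 90 min later. The comparison took 6 of the 24 RNA-seq libraries of the study by their labels for genotype, injection and region. The 3 morphine libraries came from Vdr+/+ mice on a C57BL/6 background that received 5 mg/kg morphine sulfate intraperitoneally (mice 1.0, 1.1 and 1.2), and the 3 control libraries came from Vdr+/+ mice of the same background that received PBS (mice 1, 2 and 3). Vdr encodes the vitamin D receptor, and the other libraries held Vdr-/- mice, raised on a calcium-enriched diet, or the ventral tegmental area (VTA). Each library was a bilateral tissue punch placed to take in both core and shell of the accumbens, so it held every cell type there. Age and sex of the animals were not given in the sources used here. All 26303 genes of the deposited table were considered and 15749 of them were tested, those whose value averaged 10 or more in the 6 libraries. A value here is the number of reads on a gene divided by the size factor of its library.

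Morphine binds the mu opioid receptor, a receptor coupled to inhibitory G proteins that lowers cyclic AMP and dampens neuronal firing. In the accumbens most neurons are GABAergic medium spiny neurons, which fall into a class with the dopamine D1 receptor (Drd1) and a class with the D2 receptor (Drd2), the adenosine A2a receptor (Adora2a) and the enkephalin precursor (Penk). Opioids raise dopamine release onto these cells, and the transcription factors CREB and AP-1 are known to carry such signals to the nucleus through early genes. In rodents a first dose of morphine is also known to raise circulating corticosterone, whose receptor is itself a transcription factor.

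Sequences that bear on the results are shown first. Atf3 and Fosl2, which encode partners of AP-1 and ATF complexes, were the members of the list of activity-regulated early genes that passed the test, and the 250 bases before their RefSeq start sites (GRCm38.p6) read 5′ to 3′ as below. Capitals mark TGACG on either strand, the core of the cyclic AMP response element, which lies within the full element TGACGTCA wherever that occurs.
Atf3, chr1:191183334-191183583, minus strand: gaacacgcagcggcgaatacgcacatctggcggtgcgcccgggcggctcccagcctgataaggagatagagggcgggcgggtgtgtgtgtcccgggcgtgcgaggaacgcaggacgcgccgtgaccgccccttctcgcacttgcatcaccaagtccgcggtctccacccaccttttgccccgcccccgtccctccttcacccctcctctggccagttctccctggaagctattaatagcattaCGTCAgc
Fosl2, chr5:32136222-32136471, plus strand: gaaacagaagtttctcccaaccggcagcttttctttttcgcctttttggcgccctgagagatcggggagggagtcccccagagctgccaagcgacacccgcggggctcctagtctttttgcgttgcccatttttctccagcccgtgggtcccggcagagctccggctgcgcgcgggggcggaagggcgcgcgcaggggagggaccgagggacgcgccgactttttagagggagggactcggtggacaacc
The Atf3 window held 1 such core, whose first base lay 7 bases before the start, and the Fosl2 window held none. Of the 32851 mouse promoter windows of this length 17.8% held the core, 1.55% the full element and 6.75% the AP-1 motif TGANTCA. Promoter windows were found for 35 of the 43 activity-regulated genes, and 29 of their 53 windows held the core, 4 the full element and 2 the AP-1 motif. Windows of the same gene can overlap, as for Egr2, so that a core was counted more than once. Of the 40 genes past the test on any list, windows were found for 23, and none was at hand for the CREB target Sik1. Of the 29 windows of these 23 genes, 1 held the core, 0 the full element and 0 the AP-1 motif. A match of these letters is a description of the window and not of factor binding.

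Among genes past the test, the 4 largest fold changes belonged to a pair of short non-coding RNAs, to Myoc and to a stretch of nuclear DNA copied from the mitochondrial genome, and the 2 RNAs and the copy with its source are shown because their length and likeness bear on how reads can be assigned. Rny1 and Rny3 are the Y RNAs, polymerase III transcripts that bind the Ro60 protein. Gm10925 is a pseudogene whose 678 bases were all found, letter for letter, in the 681 bases of mt-Atp6, a mitochondrially encoded subunit of ATP synthase, and the first 100 bases of the copy and of the matching stretch are given (GENCODE M21 transcripts, GRCm38.p6).
Rny1, chr6:47788069-47788180, minus strand: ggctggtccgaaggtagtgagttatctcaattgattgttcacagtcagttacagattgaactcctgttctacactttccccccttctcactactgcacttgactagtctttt
Rny3, chr6:47781624-47781725, plus strand: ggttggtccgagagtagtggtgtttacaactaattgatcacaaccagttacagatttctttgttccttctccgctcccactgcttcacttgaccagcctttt
Gm10925, chr1:24614552-24614651, minus strand: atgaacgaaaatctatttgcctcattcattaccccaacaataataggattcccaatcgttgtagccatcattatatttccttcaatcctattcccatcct
mt-Atp6, chrM:7927-8026, plus strand: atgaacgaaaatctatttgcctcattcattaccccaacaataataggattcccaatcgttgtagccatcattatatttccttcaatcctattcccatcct

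Between the groups, 128 of the 15749 genes tested differed (0.813%, adjusted p under 0.05), of which 65 were higher with morphine (0.413%) and 63 were lower (0.4%). In each of the 128 genes the 3 morphine values did not overlap the 3 PBS values, which was also true of 25.5% of all genes tested. The higher genes had a median log2 fold change of 1.24, and 42 of them exceeded 1. The lower genes had a median of -0.66 and 10 of them fell below -1. Median levels also differed, with a mean value of 237 for the higher genes, 1157 for the lower genes and 295 for all genes tested. Of the higher genes 42 were protein-coding genes of the nuclear genome, 5 were mitochondrially encoded and 13 were pseudogenes, whereas 61 of the lower genes were protein-coding genes of the nuclear genome. Over all genes tested the median log2 fold change was 0.01 and 8068 genes (51.2%) had a positive sign.

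**Figure D1:**
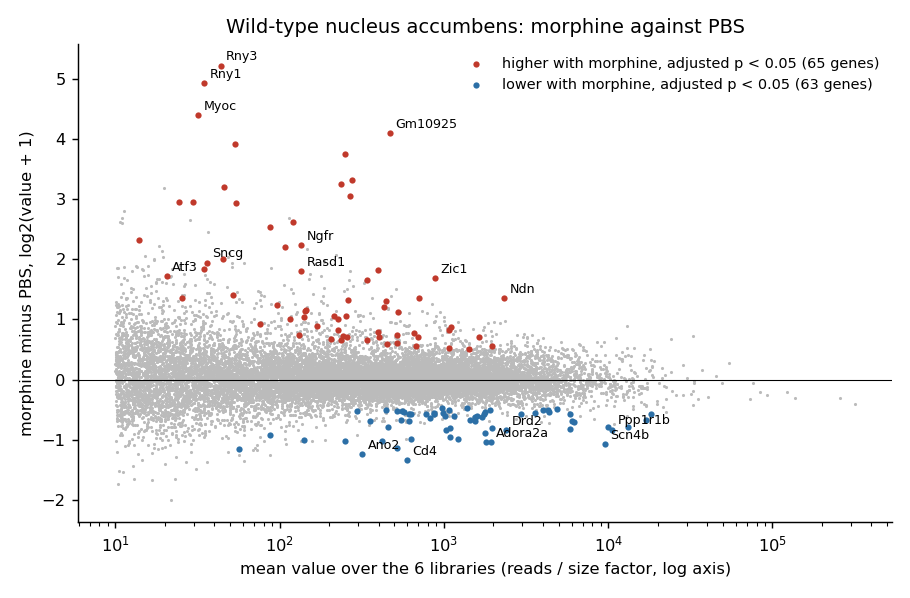
Each point is 1 of the 15749 genes tested, with its mean value over the 6 wild-type libraries on the x axis (log scale) and the fitted morphine minus PBS difference of log2(value + 1) on the y axis. The 65 higher genes (red) reach 5.22 at low levels, while the 63 lower genes (blue) lie between -1.34 and -0.48 and include abundant transcripts.

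The libraries held between 10950447 and 24509665 reads on genes, with no difference in depth between the groups beyond their spread (exact permutation test, two-sided, p = 0.5, where 20 arrangements allow no p under 0.1). Other properties separated the groups at that smallest p of 0.1 (exact permutation test, two-sided). The 10 most abundant genes took 7.06% to 7.91% of reads after morphine and 8.29% to 9.91% after PBS, lincRNAs took 2.30% to 2.92% and 2.98% to 3.31%, and processed pseudogenes took 0.0626% to 0.0729% and 0.0559% to 0.0607%. As a description, the log ratio of each library to the mean of the other 5 was correlated with GC content across genes. Spearman's rho was -0.26 to -0.19 after morphine and -0.15 to 0.44 after PBS. Each such value depends on the other libraries too. The part of these properties in the results was not tested. The PBS library of mouse 2 stood apart from the other 5. Its mean correlation with them was 0.969 against 0.983 for each of the others, and some genes nearly vanished from it. Its log ratio to the mean of the other 5 fell with exon length (Spearman's rho across genes -0.338) and rose with GC content (0.443). Xkr4, a gene that nearly vanished, read 63.6 in PBS mouse 2 against 637 and 718 in the other PBS mice. Without that library 629 genes passed the test, the 128 among them, whereas leaving out PBS mouse 1 left 4 genes and leaving out PBS mouse 3 left 9. Leaving out morphine mouse 1.0 left 21 genes, and leaving out mouse 1.1 or mouse 1.2 left 0 by limma, with 1692 and 1701 genes at an unadjusted p under 0.05 against 2616 (16.6%) with all 6 libraries. DESeq2 called 514 of the 15749 genes tested and a fit over all 12 accumbens libraries called 1056, both including the 128. Counts that later lists give for these fits, or without PBS mouse 2, stand against these larger totals. Vdr itself had 1 to 14 reads in these 6 libraries and 0 to 10 in the Vdr-/- libraries of the same region, too few to check the genotype labels. By the index sequences in the labels, the 12 morphine libraries of the study carried 12 distinct indexes and the 12 PBS libraries likewise, with 5 indexes present in both sets. All 3 wild-type morphine accumbens libraries used an index that also marked a PBS library of the VTA, so no such pair of libraries can have been read in 1 pool. The 3 wild-type PBS accumbens libraries shared 0 indexes with the morphine libraries. The libraries of the morphine and PBS mice were also named in different patterns. How libraries were pooled was not given in the sources used here, and an effect of the injection and one of a pool or preparation cannot be told apart.

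Atf3 and Fosl2 rose among the early response genes. On the list of 42 activity-regulated genes tested, 2 were higher and 0 lower, 28 had a positive sign, and the median log2 fold change was 0.15 against 0.01 over all genes. Over all genes 0.413% were higher and 0.4% lower, the shares against which the calls on this and the later lists stand. Atf3, a stress-responsive bZIP repressor (chr1:191170296-191218039), gave values of 31.9, 37.9 and 26.8 after morphine and 9.51, 7.79 and 9.7 after PBS. The groups were far apart (log2 fold change of 1.72 ± 0.26 (SE), adjusted p = 0.0377), although its level was low. Fosl2, which encodes the Fos family member Fra-2 (chr5:32135801-32157842), read 1313, 1360.3 and 1430.0 after morphine and 849, 637 and 860.3 after PBS. It rose as well (log2 fold change of 0.82 ± 0.12 (SE), adjusted p = 0.039), and the lowest of its PBS values came from mouse 2.

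Among the 34 CREB and cyclic AMP targets tested, 1 was higher and 0 were lower, with a median of 0.22. Sik1, a salt-inducible kinase that restrains CREB coactivators (chr17:31844250-31855804), read 518, 562 and 530.3 after morphine and 330.0, 382 and 363 after PBS. Its values were tight within both groups (log2 fold change of 0.58 ± 0.09 (SE), adjusted p = 0.039). Further members of the 2 lists reached by the naming rule did not pass the test. They were Nr4a3, an orphan nuclear receptor, at 0.82 ± 0.18 (SE, log2 fold change), with adjusted p = 0.091, Klf4 at 0.73 ± 0.17 with adjusted p = 0.108, Irs2, an insulin receptor substrate, at 0.49 ± 0.10 with adjusted p = 0.0736, Cdkn1a, a cell cycle inhibitor on the CREB and glucocorticoid lists, at 0.74 ± 0.14 with adjusted p = 0.0638, and Rgs4, a brake on G protein signalling, at -0.60 ± 0.12 with adjusted p = 0.0736.

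The best known early genes are given here although the rule for named genes did not reach them, and they were picked after their values were seen. Fos gave values of 276, 341 and 330.0 after morphine and 213, 197 and 333 after PBS, so that the highest PBS mouse lay among the morphine mice (log2 fold change of 0.38 ± 0.20 (SE), adjusted p = 0.381). Arc, the dendritic early gene, read 1437, 1425 and 1508 after morphine and 1564, 1012 and 1986 after PBS, with all morphine values inside the PBS range (log2 fold change of -0.01 ± 0.22 (SE), adjusted p = 0.986). Fosb read 363, 529 and 530.3 after morphine and 379, 321 and 407 after PBS and did not pass (log2 fold change of 0.35 ± 0.17 (SE), adjusted p = 0.35). Egr1 was on the negative side without passing (log2 fold change of -0.41 ± 0.20 (SE), adjusted p = 0.349).

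Rasd1, Plin4 and Gjb6 rose among genes induced by glucocorticoids. Of 41 tested, 3 were higher and 0 lower, 34 had a positive sign, and the median log2 fold change was 0.34. Rasd1, a dexamethasone-induced Ras-related protein (chr11:59963181-59964944), gave values of 152, 283 and 197 after morphine and 46.6, 70.1 and 59.5 after PBS. It had the largest change of the 3 (log2 fold change of 1.80 ± 0.25 (SE), adjusted p = 0.0347), and its lowest morphine value was above 2 times its highest PBS value. Plin4, a lipid droplet coat protein (chr17:56100591-56109803), read 391, 475 and 685 after morphine and 224, 136 and 129 after PBS. It rose with a wide spread within both groups (log2 fold change of 1.66 ± 0.26 (SE), adjusted p = 0.0439). Gjb6, the astrocyte gap junction protein connexin 30 (chr14:57123303-57133611), read 727, 726 and 715 after morphine and 366, 349 and 283 after PBS. The morphine mice were nearly alike for it (log2 fold change of 1.13 ± 0.11 (SE), adjusted p = 0.0165). Tsc22d3, which encodes the steroid-induced protein GILZ, read 1259.8, 1455 and 1262 after morphine and 922, 753 and 631 after PBS and missed the threshold (log2 fold change of 0.80 ± 0.14 (SE), adjusted p = 0.0559). Fkbp5 and Sgk1, classical targets of the receptor that the rule for named genes left out, had log2 fold changes of 0.21 ± 0.11 and 0.64 ± 0.20 (SE), with adjusted p of 0.359 and 0.184. Without PBS mouse 2, when more genes passed in all, 9 genes of the list were higher and 1 lower. Plin4 held no match to the glucocorticoid response element in its promoter window, a motif found in 0.387% of all windows, and no window was at hand for Rasd1.

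Dbp and Nr1d1 of the circadian clock fell. Of 23 circadian genes tested, 0 were higher, 2 were lower and 16 had a negative sign, with a median of -0.13. Dbp, a D-box binding activator and output of the clock (chr7:45705088-45710203), read 903, 709 and 781 after morphine and 1283, 1519.6 and 1361 after PBS. All morphine values lay below all PBS values (log2 fold change of -0.80 ± 0.11 (SE), adjusted p = 0.0347). Nr1d1, which encodes the repressor REV-ERBα (chr11:98767932-98775333), read 1577, 1557 and 1609 after morphine and 2090.3, 2244 and 2419 after PBS and fell by less (log2 fold change of -0.51 ± 0.08 (SE), adjusted p = 0.039). Per1, a clock gene that also answers to CREB and to glucocorticoids, read 2428, 2359.9 and 2280.4 after morphine and 2887, 2503 and 2411 after PBS and did not pass (log2 fold change of -0.14 ± 0.09 (SE), adjusted p = 0.458).

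**Figure D2:**
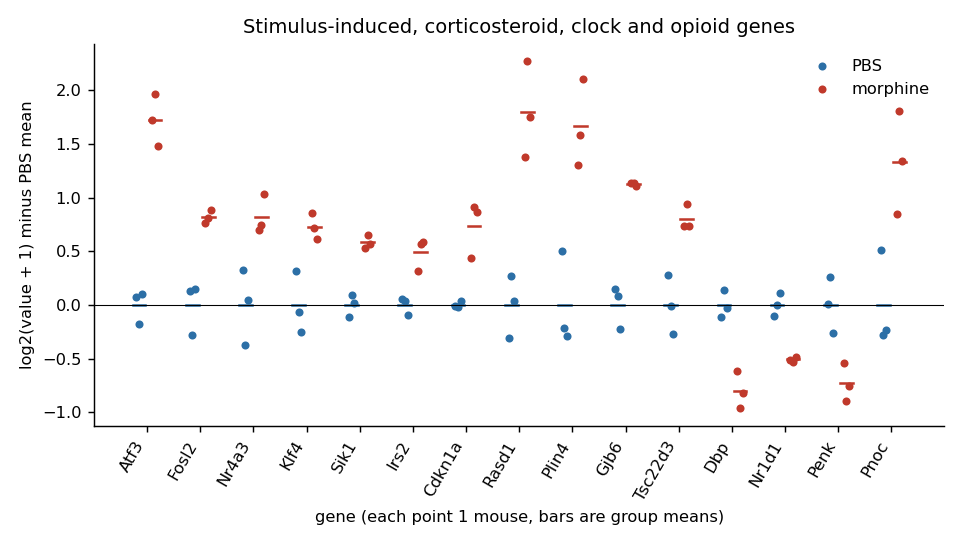
For 15 genes the log2(value + 1) of each mouse is plotted relative to the mean of the 3 PBS mice (y axis), with PBS in blue, morphine in red and short bars for group means. Rasd1, Atf3 and Plin4 show the highest morphine means (1.80, 1.72 and 1.66), and Dbp and Nr1d1 lie below the PBS values.

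Genes of the opioid system itself did not pass the test. Of 13 receptor, peptide and regulator genes tested, 0 were called by limma and 5 did not overlap between groups (25.5% over all genes). DESeq2, which called more genes in all than limma, called 1 higher and 1 lower. At an unadjusted p under 0.05 (16.6% over all genes) there were 4 of them, Penk, Pnoc, Grk3 and Oprl1. Penk, the enkephalin precursor of D2-type neurons, gave values of 9187, 7193 and 7909 after morphine and 13427, 16018 and 11124 after PBS. The groups did not overlap, but the PBS mice varied widely (log2 fold change of -0.73 ± 0.15 (SE), adjusted p = 0.0804). Pnoc, the nociceptin precursor, read 74.7, 146 and 106 after morphine and 59, 33.7 and 34.9 after PBS and also missed the threshold (log2 fold change of 1.33 ± 0.30 (SE), adjusted p = 0.103). Oprm1, the receptor for morphine, read 187, 237 and 249.6 after morphine and 255, 14.3 and 215 after PBS. The value of PBS mouse 2 was far below the other 5, and the fitted change of 1.24 ± 0.97 (SE) rested on it. Oprk1 and Oprd1, the kappa and delta receptors, had log2 fold changes of -0.29 ± 0.14 and -0.23 ± 0.12.

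Drd2, Adora2a, Ppp1r1b and 5 other genes of the medium spiny neuron fell. Of 48 genes tested for this cell type and its dopamine signalling, 0 were higher and 8 were lower, 40 had a negative sign, and the median log2 fold change was -0.46. Another 8 had a positive sign, the largest being Dlx1, Drd3 and Gad2, at 0.47, 0.42 and 0.35 (adjusted p of 0.379, 0.485 and 0.188). Summed over the list, the value was 169090 to 198240 in the morphine mice and 232306 to 261388 in the PBS mice. In whole tissue, fewer cells of a type and less RNA per cell cannot be told apart. Drd2 (chr9:49340627-49408177) read 1904, 1652 and 1582 after morphine and 3308, 3056 and 2820.2 after PBS. The groups were well apart (log2 fold change of -0.84 ± 0.10 (SE), adjusted p = 0.0257). Adora2a (chr10:75316877-75334784), the partner of Drd2 in the same neurons, read 1569.7, 1025 and 1200.1 after morphine and 2629.5, 2832 and 2285 after PBS and had the largest drop of the 8 (log2 fold change of -1.05 ± 0.16 (SE), adjusted p = 0.039). Ppp1r1b (chr11:98348404-98357796), which encodes the dopamine-regulated phosphatase inhibitor DARPP-32 of both neuron classes, read 8473, 7046 and 7250.1 after morphine and 13921, 14533 and 12029.7 after PBS. It fell too (log2 fold change of -0.83 ± 0.11 (SE), adjusted p = 0.0347). Drd1 read 2622, 1839 and 2005 after morphine and 3522, 3462 and 3063 after PBS without passing the test (log2 fold change of -0.65 ± 0.14 (SE), adjusted p = 0.0824), and the peptide precursors of D1-type neurons Pdyn and Tac1 had log2 fold changes of -0.19 ± 0.27 and -0.20 ± 0.22, with overlapping groups.

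The remaining 5 list members past the test serve cyclic AMP, calcium and neuronal identity. Adcy5, the main striatal adenylyl cyclase, read 14109, 12836 and 12574 after morphine and 21553, 21583 and 19583 after PBS and changed by -0.67 ± 0.10 on the log2 scale (SE, adjusted p = 0.0368). Pde1b, a calmodulin-dependent phosphodiesterase, changed by -0.79 ± 0.12 (adjusted p = 0.0393). Rasd2, the striatal GTPase Rhes, changed by -0.83 ± 0.10 (adjusted p = 0.0332), and Rasgrp2, a calcium-regulated exchange factor, by -0.99 ± 0.11 (adjusted p = 0.0221). Bcl11b, the transcription factor CTIP2 that specifies these neurons, changed by -0.50 ± 0.08 (adjusted p = 0.0489). Adcy5, Pde1b and Bcl11b missed the threshold under quantile normalization. The count of lower genes on the list was 26 without PBS mouse 2 and 28 in the fit over 12 libraries, and the median stayed between -0.52 and -0.42 when each library was left out in turn.

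Zic1 and Col1a2, markers of the septum and of the meninges, rose. Of 9 tested markers of septal and olfactory structures, 1 was higher and 0 lower, 7 had a positive sign and the median log2 fold change was 1.07. Zic1, a zinc finger factor of septal and midline neurons (chr9:91358058-91365810), read 1027, 1886 and 1162 after morphine and 336, 420.5 and 479 after PBS, with mouse 1.1 the highest (log2 fold change of 1.68 ± 0.23 (SE), adjusted p = 0.0347). Zic2, Zic4 and Trpc4 did not pass but had non-overlapping groups, with log2 fold changes between 1.07 and 1.44. The summed value of the 12 markers was 3304 to 5519 in the morphine mice and 2115 to 2997 in the PBS mice. For 18 markers of meningeal and perivascular fibroblasts it was 3259 to 5105 against 2113 to 2465. Of the 17 of them tested 1 passed, the collagen gene Col1a2, and all 17 had a positive sign, with a median of 0.77. Of 15 tested markers of cortical and hippocampal excitatory neurons 0 were higher and 1 was lower, Lamp5. Of these 15 markers 6 had a positive and 9 a negative sign, with a median of -0.03. Of 13 genes enriched in accumbens shell or core 0 were called by limma and by DESeq2, 9 had a positive sign and the median was 0.37. At an unadjusted p under 0.05 (16.6% over all genes) there were 3. Without PBS mouse 2 limma called 1 of them higher and 1 lower. The summed value overlapped, at 16534 to 17417 against 13262 to 20901, and a sum over shell and core genes together can hide opposite changes. The part of punch position in the striatal result was not tested.

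**Figure D3:**
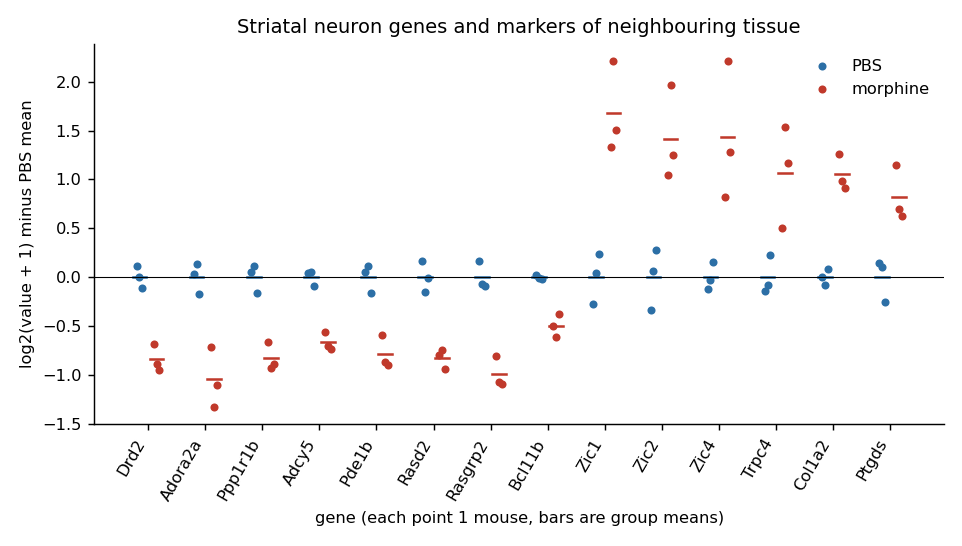
The same scale as in the plot of stimulus-induced genes is used for the 8 medium spiny neuron genes past the test (left), 4 septal markers and 2 meningeal markers (right). All 3 morphine values lie below all 3 PBS values for the 8 striatal genes and above them for the 6 markers.

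Other genes with large decreases are given next. Ano2, a calcium-activated chloride channel (chr6:125690419-126040126), read 184, 187 and 197 after morphine and 471, 436 and 437 after PBS and had the lowest adjusted p of the comparison together with Gm10925 (log2 fold change of -1.24 ± 0.09 (SE), adjusted p = 0.00875). Cd4, known as the T cell coreceptor (chr6:124864692-124888221), read 323, 355 and 323 after morphine and 990.0, 742 and 819 after PBS, the largest drop of all genes past the test (log2 fold change of -1.34 ± 0.12 (SE), adjusted p = 0.0157). Of 8 T cell markers listed, 7 were in the table, and Cd4 and 1 other were high enough to be tested. The other marker tested, Lck, was at -0.29 ± 0.26 (SE, log2 fold change, adjusted p = 0.581), and the 6 markers other than Cd4 summed to 30.1 to 39.5 after morphine and 38.0 to 50.6 after PBS. Scn4b, a sodium channel subunit, read 6791, 6214 and 5492 after morphine and 14875, 11502 and 12549 after PBS (log2 fold change of -1.07 ± 0.13 (SE), adjusted p = 0.0257). Syndig1l, Kcnh4, Plxnd1 and the serotonin receptor Htr1d had log2 fold changes from -1.03 to -0.89, with adjusted p between 0.0157 and 0.044. The non-coding transcripts Ptprv and Gm10076 fell as well, with log2 fold changes of -1.14 (adjusted p = 0.0347) and -1.03 (adjusted p = 0.0248). Hpca, the calcium sensor hippocalcin, which was picked after its value was seen, fell from 12627 ± 602 to 7298 ± 342 (SD, n = 3 each), with adjusted p = 0.0199. For none of the 12 genes with the largest decreases did any alternative turn the sign. Leaving out 1 library could not turn it, because their groups did not overlap.

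Receptors and channels did not share a direction. Of 42 ion channel subunits tested, most of them voltage-gated and some gated by calcium or inwardly rectifying, 1 was higher and 3 were lower. Kcnd3, an A-type potassium channel subunit, read 1898, 1974 and 2187 after morphine and 1311, 1051 and 1369 after PBS and rose (log2 fold change of 0.71 ± 0.12 (SE), adjusted p = 0.0476), whereas Kcnh3 fell (log2 fold change of -0.63 ± 0.10 (SE), adjusted p = 0.0468), as did Ano2 and Scn4b. Among 15 GABA-A receptor subunits, Gabrd, the extrasynaptic delta subunit, read 881, 664 and 689.6 after morphine and 1294, 1447 and 1239 after PBS and fell (log2 fold change of -0.84 ± 0.12 (SE), adjusted p = 0.0377), and Gabrg1, the gamma 1 subunit, read 806, 881 and 904 after morphine and 575, 574 and 450.2 after PBS and rose (log2 fold change of 0.70 ± 0.11 (SE), adjusted p = 0.0473). With a correction for exon length and GC content Gabrg1 no longer passed (adjusted p = 0.198), and it also missed the threshold under quantile normalization. Of 36 glutamate receptor and scaffold genes 1 passed, the NMDA receptor subunit Grin3a, with values of 1328, 1468 and 1474 after morphine and 710.4, 733 and 900.4 after PBS (log2 fold change of 0.87 ± 0.11 (SE), adjusted p = 0.0306). Of 41 genes of the cyclic AMP machinery 2 were higher, Adcy8 and Sik1, and 2 were lower, Adcy5 and Pde1b. Under quantile normalization Adcy8, Adcy5 and Pde1b kept their sign and missed the threshold, which left 1 higher and 0 lower. Adcy8, a calcium-stimulated adenylyl cyclase, read 274, 318 and 279 after morphine and 185, 195 and 170.1 after PBS (log2 fold change of 0.66 ± 0.11 (SE), adjusted p = 0.0444). Of 40 G protein and RGS genes 0 were called by limma and 16 had an unadjusted p under 0.05 (16.6% over all genes). DESeq2, which called more genes in all than limma, called 2 higher and 6 lower.

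Myoc, Ngfr and Sncg were among the nuclear protein-coding genes that rose. Myoc, which encodes the extracellular protein myocilin, had 98.4, 52.7 and 33.8 after morphine and 0, 2.6 and 4.53 after PBS, from 189 reads in the morphine libraries and 9 in the PBS libraries. The ratio of the groups was 24.5, with an exact interval of 12.6 to 54.4 (95%, counting error only). Ngfr, the p75 neurotrophin receptor (chr11:95568818-95587735), read 306, 216 and 149 after morphine and 62.8, 45.4 and 31.7 after PBS and differed by several fold (log2 fold change of 2.23 ± 0.32 (SE), adjusted p = 0.0354). Sncg, gamma-synuclein, read 52, 71.2 and 50.8 after morphine and 15.2, 14.3 and 12.9 after PBS (log2 fold change of 1.95 ± 0.22 (SE), adjusted p = 0.0221). It is also 1 of 7 tested markers of midbrain dopamine neurons, the only 1 of them to pass. Other higher genes were Ndn, the imprinted gene necdin, with 3095, 3737 and 3184 after morphine and 1334, 1494 and 1113 after PBS (log2 fold change of 1.35 ± 0.13 (SE), adjusted p = 0.0157), and Slc17a6, the vesicular glutamate transporter VGLUT2, which accumbens spiny neurons lack, with 302, 355 and 249.6 after morphine and 148, 170.0 and 127 after PBS (log2 fold change of 1.01 ± 0.16 (SE), adjusted p = 0.0444). The relaxin family receptor gene Rxfp3 and the serotonin receptor gene Htr7 had log2 fold changes of 1.41 and 1.01 and passed as well. Ndn, Slc17a6, Rxfp3 and Htr7 lay outside the rule for named genes and were chosen after their values were seen.

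Gjb6 and Gfap rose among astrocyte markers, and Cx3cr1 and Sox10 fell among microglial and oligodendrocyte markers. Of 15 astrocyte markers 2 were higher and 0 lower, 11 had a positive and 4 a negative sign, and the median was 0.27. At an unadjusted p under 0.05 (16.6% over all genes) there were 9, and 8 did not overlap between groups (25.5% over all genes). Of the 4 negative markers, Sox9 was at -0.51 ± 0.10 and S100b at -0.25 ± 0.09 (log2 fold change, SE). Summed over the astrocyte list the values were 90814 to 93802 after morphine. In PBS mice 1, 2 and 3 they were 92043, 58681 and 90360. Gfap, the astrocyte intermediate filament, read 912, 825 and 747 after morphine and 514, 446 and 483 after PBS (log2 fold change of 0.78 ± 0.10 (SE), adjusted p = 0.0347). Of 18 microglia and macrophage markers 0 were higher and 1 lower, and 16 had a negative sign, with a median of -0.39. The groups did not overlap for 17 of the 18 (25.5% over all genes), and 17 had an unadjusted p under 0.05 (16.6% over all genes). The fit over 12 libraries called 9 of the 18 lower. Cx3cr1, the fractalkine receptor of microglia, read 671, 571 and 642 after morphine and 959, 921 and 929 after PBS (log2 fold change of -0.58 ± 0.08 (SE), adjusted p = 0.0368). Of 17 oligodendrocyte markers, 6 of them at an unadjusted p under 0.05, 1 was lower, the lineage factor Sox10, with 498, 459.6 and 449.9 after morphine and 825, 772 and 681 after PBS (log2 fold change of -0.69 ± 0.10 (SE), adjusted p = 0.0347). Summed over the microglial list the values were 5504 to 6197 after morphine and 7224 to 7891 after PBS, and over the oligodendrocyte list 71858 to 86409 and 83816 to 109894. Heat-shock genes (26 tested), endoplasmic reticulum stress genes (26), interferon-stimulated genes (24), cholesterol synthesis genes (22) and nuclear oxidative phosphorylation subunits (69) gave 0 calls by limma and by DESeq2, with medians of 0.11, 0.08, -0.15, 0.21 and -0.02. At an unadjusted p under 0.05, passed by 16.6% of all genes, these lists held 4, 2, 1, 6 and 5 genes. The lists of ERK feedback genes, p53 targets, other neuropeptides and cytosolic ribosomal proteins (24, 17, 29 and 75 tested) also gave 0 calls by limma. They held 6, 5, 5 and 20 genes at an unadjusted p under 0.05. DESeq2, which called more genes in all than limma, called 1, 3, 0 and 2 of them. With 0.813% of all genes called by limma, 0 calls on lists of this size do not show that their members were unchanged. Of 16 inflammatory genes 1 was lower, the scavenging chemokine receptor Ackr2 (log2 fold change of -1.15 ± 0.19 (SE), adjusted p = 0.0489).

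The Y RNAs and copies of mitochondrial genes rose. Rny3 read 179, 44.4 and 36.7 after morphine and 0, 2.6 and 0.647 after PBS, from 270 reads in the morphine libraries and 3 in the PBS libraries. Rny1 read 135, 41.6 and 28.2 after morphine and 0, 2.6 and 0.647 after PBS, from 213 and 3 reads. Their ratios were 105 (exact 95% interval 35.5 to 512) and 82.8 (28.0 to 405), covering counting error only, and mouse 1.0 was the highest for both. The fitted differences of 5.22 and 4.93 depend on the pseudocount. The annotated RNAs are 112 (Rny1) and 102 bases long (Rny3), as printed above.

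All 9 called unprocessed pseudogenes were higher, and each shared between 37.9% and 100% of its 25-base words with mitochondrial transcripts. Gm10925 (chr1:24613974-24614651) read 1386, 660.3 and 623 after morphine and 49.5, 51.9 and 42 after PBS, and its lowest morphine value was above 10 times its highest PBS value (log2 fold change of 4.09 ± 0.29 (SE), adjusted p = 0.00875). The block on chromosome 1 that holds it also held Gm28439, Gm10222, Gm28438, Gm28437, Gm28661 and Gm29216, with log2 fold changes between 2.96 and 3.91, of which Gm28438 missed the threshold under quantile normalization. Of the 13 mitochondrially encoded protein genes 5 were higher and 0 lower. These were mt-Nd4l, mt-Atp8, mt-Co2, mt-Atp6 and mt-Co3, at 2.95, 2.93, 2.62, 2.54 and 2.21. Their mean values were low, from 29.8 (mt-Nd4l) to 121 (mt-Co2), against 92143.5 for mt-Nd1. Of the 13 genes 7 had a negative sign, and the median was -0.18. mt-Atp6 read 223, 127 and 100.1 after morphine and 22.8, 24.7 and 23.3 after PBS, and 99.5% of its words recurred in nuclear transcripts. mt-Nd1, with 0% of its words in nuclear transcripts, gave -0.25 ± 0.15 (log2 fold change, SE; adjusted p = 0.425) and mt-Nd2, with 18.2%, gave -0.21 ± 0.13 (adjusted p = 0.442). mt-Co1, with 69.7%, gave -0.31 ± 0.20 (adjusted p = 0.457) and mt-Nd4, with 62.9%, gave -0.33 ± 0.13 (adjusted p = 0.279). Of the 5 higher genes, 4 shared 98.9% to 100% of their words with nuclear transcripts and mt-Atp8 shared 11.7%. In contrast mt-Nd3, at 98.1%, did not pass (log2 fold change of 1.01 ± 0.27 (SE), adjusted p = 0.148). The assignment of a read between such copies is uncertain. Genes of the mitochondrial genome together took 5.17% to 5.74% of reads in the morphine libraries and 5.70% to 7.03% in the PBS libraries.

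The same transcripts separated the injections in every other group of the study. The 8 called nuclear genes with over 50% of their words in mitochondrial transcripts were summed as nuclear copies, which leaves out Gm13339 (37.9%) and Gm4076 (33.3%). In CPM, reads scaled to a common library total, they summed to 164 to 363 in the wild-type morphine accumbens and to 23.1 to 28.3 in the PBS accumbens. In the Vdr-/- accumbens they summed to 82.0 to 245 after morphine and 23.9 to 25.3 after PBS. Rny3 was at 2.37 to 11.8 CPM after morphine and 0 to 0.172 after PBS in the wild-type accumbens. Over all 4 pairs of groups the lowest of 12 morphine libraries stood at 1.19 CPM of Rny3 and the highest of 12 PBS libraries at 0.172. The naming patterns of the libraries follow the injection in all 4 pairs, so the injection and a pool or preparation cannot be told apart here.

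**Figure D4:**
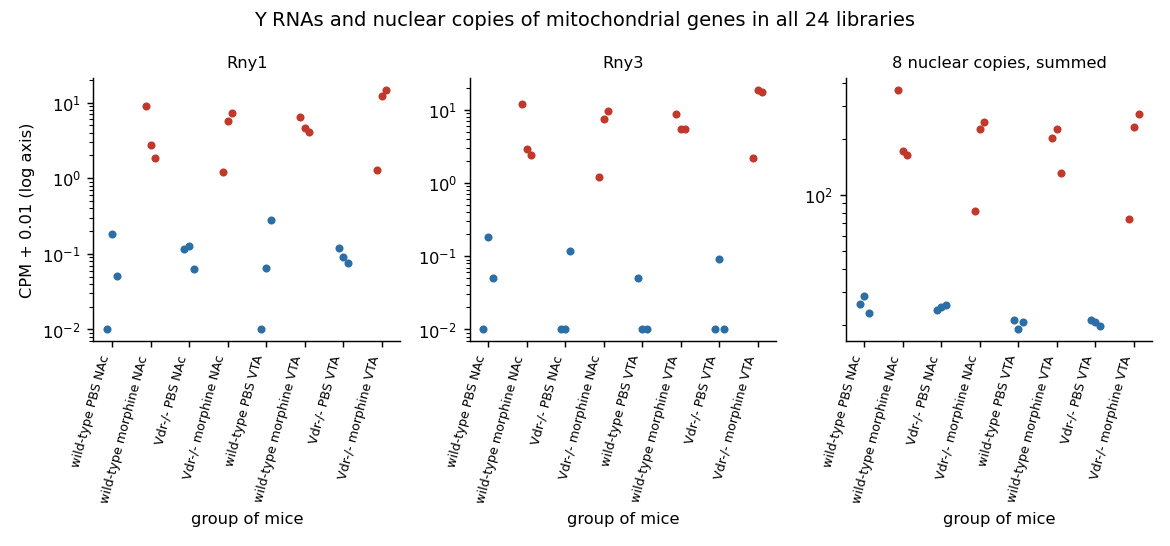
The CPM of Rny1, of Rny3 and of 8 nuclear copies of mitochondrial genes (summed) is plotted on log axes for each of the 24 libraries in 8 groups, with 0.01 added so that libraries at 0 can be drawn. The morphine libraries (red) lie above the PBS libraries (blue) in both genotypes and both regions, with the nuclear copies at 164 to 363 in the wild-type accumbens against 23.1 to 28.3.

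The response in wild-type mice was set beside that of Vdr-/- mice, whose 6 accumbens libraries shared no mouse with the wild-type comparison. There 3018 of 15820 genes tested passed (19.1%). Of the 128 wild-type genes 115 also passed in Vdr-/- mice, all in the same direction, which is 89.8% of the wild-type list and 3.81% of the Vdr-/- list. Of the 65 higher genes 56 passed again, with a median log2 fold change of 1.08, and of the 63 lower genes 59 passed again, with a median of -0.55. The medians are over all 65 and all 63 genes. With 1 wild-type library left out the shared count ranged from 0 to 481, the latter without PBS mouse 2. Injection and naming pattern coincide in the Vdr-/- libraries too, so a shared direction does not separate them. The list of medium spiny neuron genes gave 36 lower and 3 higher genes of 48 in Vdr-/- mice, at a median of -0.38, and the septal list 6 higher and 1 lower of 9, at a median of 1.03. The activity-regulated list gave 22 higher and 1 lower gene of 42, at a median of 0.47, and the glucocorticoid list 12 higher and 5 lower of 41, at a median of 0.10.

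Whether the effect of morphine differed between the genotypes was tested gene by gene over the 12 libraries. Of 15571 genes 0 passed in limma, with a lowest adjusted p of 0.834, and 898 had an unadjusted p under 0.05 (5.77%). edgeR and DESeq2 also called 0, with 872 and 650 genes at an unadjusted p under 0.05. Arc had a log2 fold change of 1.28 ± 0.17 (SE) in Vdr-/- mice and -0.01 ± 0.22 in wild-type mice, a difference of 1.29 ± 0.33. For Fos the values were 1.11 ± 0.16 and 0.38 ± 0.20, with a difference of 0.72 ± 0.30. Rasd1 gave 0.76 ± 0.14 and 1.80 ± 0.25, a difference of -1.04 ± 0.31, and Plin4 gave 0.51 ± 0.23 and 1.66 ± 0.26, a difference of -1.15 ± 0.42. Ndn, which rose in wild-type mice, read 1302, 3455 and 3646 after morphine and 2433, 2964 and 2641 after PBS in Vdr-/- mice, with overlapping groups and a difference of -1.42 ± 0.42 between the effects. None of these differences passed the adjusted test, and the genes were chosen after their values were seen. Drd2 and Ppp1r1b differed by 0.25 ± 0.14 and -0.03 ± 0.15 between the genotypes.

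**Figure D5:**
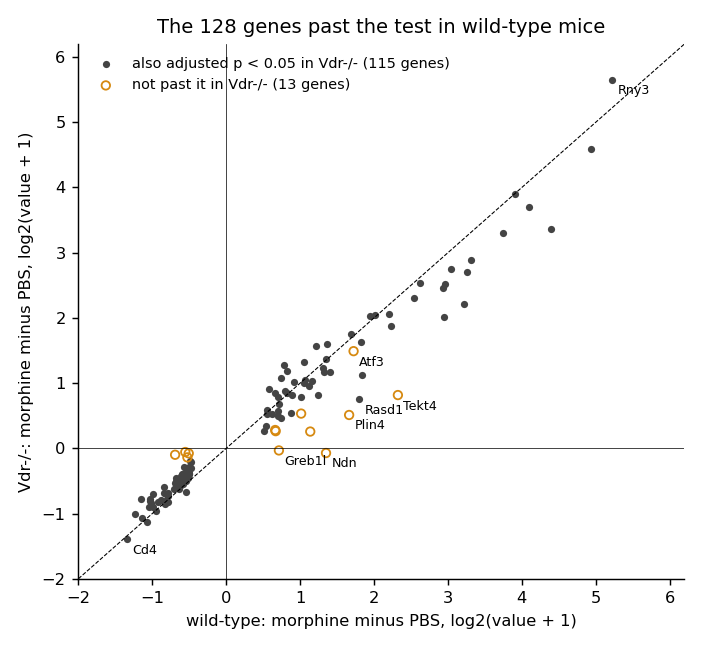
The fitted morphine minus PBS difference of log2(value + 1) in Vdr-/- mice (y axis) is plotted against that in wild-type mice (x axis) for the 128 genes past the test in wild-type mice, with a dashed line of equality. Filled points are the 115 genes that also passed in Vdr-/- mice and open circles the other 13, among them Ndn at 1.35 in wild-type and -0.07 in Vdr-/- mice.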

How the data were processed

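RNA from frozen accumbens punches was extracted with Trizol and made into directional libraries for paired-end sequencing. The authors trimmed reads with Trimmomatic 0.36, mapped them to GRCm38 with STAR 2.4.2a and counted them per gene with its GeneCounts option, but which strand column they took is not given in the sources used here. The deposited tables hold a signal per gene, which are those counts divided by a DESeq2 size factor set within each table. Whole reads were recovered from 100% of values at a tolerance of 0.01 and served for depth, CPM and count models.

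Here log2(value + 1) was fitted with limma 3.58.1 (trend, two-sided, Benjamini-Hochberg over genes averaging 10 or more, threshold 0.05). The fit was tested on simulated counts. Alternatives were other pseudocounts, filters and scalings, edgeR 4.0.16, DESeq2 1.42.0, array weights, a length and GC correction, all 12 accumbens libraries and each library left out. Genes were named by rule: the 12 largest changes in each direction past the test, 10 in each direction among those averaging 100 or more, every list gene past the test, the 4 lowest p of 5 lists and the 6 lowest adjusted p overall. Lists, rule and comparison were chosen with earlier results of these data known. Whether libraries came from separate litters or days is not given in the sources used here, so p-values measure the spread between these mice. Values were read from 5 of the deposited tables, and a library held by more than 1 of them was counted once. Promoters came from RefSeq and gene positions from GENCODE M21, which matched 29897 of 29963 gene IDs.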

Additional observations from a re-analysis of the deposited data

Results flagged for a closer look

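Outside the accumbens comparison, the libraries of the wild-type VTA held the same 3 signals above their PBS level. The lowest morphine library there had 4.11 CPM of Rny1 against 0.273 in the highest PBS library. For Rny3 the values were 5.42 and 0.0406, and for the 8 nuclear copies of mitochondrial genes, summed, they were 130 and 21.1. These libraries came from the same mice as the accumbens libraries by their numbers and followed the same naming patterns.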

How the results depend on the processing

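The count of 128 genes stayed between 124 and 165 with a pseudocount of 0.5 or 8, no filter, a minimum mean of 50, quantile or TMM scaling and edgeR on the same 6 libraries. It moved to 27 without the trend, 928 with array weights, 514 in DESeq2, 1056 in limma and 1083 in edgeR on 12 libraries, and 243 with the length and GC correction, and ranged from 0 to 629 with 1 library left out. The 115 genes shared with Vdr-/- mice became 12, 714, 402, 476, 516 and 214 under those settings in the same order, and 0 to 481 with 1 wild-type library left out. Without morphine mouse 1.0 the 2 counts were 21 and 20, without PBS mouse 1 they were 4 and 4, without PBS mouse 3 they were 9 and 7, without PBS mouse 2 they were 629 and 481, and without morphine mouse 1.1 or 1.2 both were 0 in limma, with 1692 and 1701 genes at an unadjusted p under 0.05. The count of 0 genes for the genotype difference ranged from 0 to 1, the 1 without wild-type PBS mouse 1. The cause of these moves was not tested. Of the 68 genes named by rule, 0 turned their sign in any alternative. For those past the test, leaving out 1 library could not turn it, because their groups did not overlap. No paired analysis was possible because the groups share no mouse numbers. Depth limited the Y RNAs and Myoc, with 3 to 9 reads in all in the PBS libraries. The list of skeletal muscle and bone genes gave no value at that minimum.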
